A study of Homo sapiens with 8 samples.

Results

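Translation efficiency of the proteasome genes was followed in human hepatic stellate cells after silencing of LARP6, a La-related RNA-binding protein known for binding type I collagen messages. Members were taken by name, as the genes whose symbol begins with PSMA, PSMB, PSMC, PSMD, PSME, PSMF or PSMG, leaving out names that end in P and a number. The rule found 46 members among the 12109 transcripts of the authors' deposited table, with 1 row per gene. Of these, 44 encode subunits, activators, a regulator or assembly factors, and the other 2, PSMA3-AS1 and PSMG3-AS1, are antisense or long non-coding RNAs that the prefix takes in. PSMA8, PSMB11, PSMC1 and PSMC6 are not analysed here, which leaves 44 of the 48 genes of the structural groups.

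The proteasome is the protease that degrades ubiquitin-tagged proteins in the cytosol and nucleus. Its 20S core is a barrel of stacked rings, in which alpha subunits form the gated entrance and beta subunits carry the proteolytic sites. The 19S regulatory particle caps the barrel: its base holds the ATPases that unfold substrates, and its lid removes the ubiquitin chains. Because the complex is built from subunits in fixed ratio, dedicated chaperones assemble it, and alternative caps and inducible beta subunits modify its output.

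The series holds 8 libraries, 2 in each of 4 groups. Total RNA (RNA-seq) and ribosome footprints (ribosome profiling) were sequenced from cells given a control silencing RNA (dsi-control, genotype WT) and from cells given a silencing RNA against LARP6 (dsiLARP6, genotype LARP6 kd). Ribosome profiling sequences the RNA pieces that ribosomes shield from nuclease. The labels describe the cells as a cell line grown in DMEM with serum, name no donor or clone, and record no TGF-beta treatment for these samples. Translation efficiency is the amount of footprints per amount of RNA of a transcript. The authors' deposited table gives its log2 change in the knockdown against the control, its log2 level in the knockdown and p-values, and no value for any single library. Replicate values, standard errors, intervals, sequencing depth, RNA levels and the depletion of LARP6 therefore cannot be shown, and the precision of a change rests on the authors' p-value. Of 15 stellate cell and fibroblast markers, 11 had a row, among them COL1A1, ACTA2, PDGFRB and LUM, whereas DES, LRAT, RGS5 and NGFR are not analysed here. Rows were found for 2 of 7 hepatocyte (APOA1, SERPINA1), 1 of 5 endothelial (VWF), 2 of 6 leukocyte and Kupffer (CD68, CD14) and 3 of 4 biliary markers (KRT7, KRT19, SOX9). A row shows that a transcript was kept by the authors, not how abundant it was.

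Ribosomes begin translation at a start codon whose surroundings are read by the scanning initiation complex, with a purine at position −3 and a G at position +4 (counted from the A of the ATG) known as the favourable bases. The start regions below, 10 bases before and 4 after the start codon, belong to the catalytic beta subunits, to their inducible counterparts, and to the members with the highest and the lowest efficiency. They were read 5′ to 3′ from GENCODE release 29 transcripts (GRCh38), and capitals mark position −3, the start codon and position +4.
PSMB6: gaggagaAagATGGcgg
PSMB9: ccttgcaGggATGCtgc
PSMB7: tcttgggAagATGGcgg
PSMB10: ctgccccAagATGCtga
PSMB5: cacactaGacATGGcgc
PSMB8: ctgggcgGtcATGGcgc
PSMG2: cactgcgAccATGTtcg
PSMB1: cagccgtGcgATGTtgt
PSMA6: ttctaccAacATGTccc
PSME2: ctgaagcAgcATGGcca
All 10 carry a purine at position −3, the members of highest and of lowest efficiency alike. Such a purine is common, being present in 87.1% of 10090 protein-coding transcripts. A G at position +4 is carried by PSMB5, PSMB6, PSMB7, PSMB8 and PSME2 only. PSME2 is among the members of lowest efficiency, while PSMG2 and PSMB1, the highest, have a T there.

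No proteasome gene changed in translation efficiency past an adjusted p of 0.05. Of the 46 members 0 passed in the authors' deposited table, against 2.2% of all 12109 transcripts. At so low a share, 0 of 46 does not set the members apart from the table. An unadjusted p under 0.05 was reached by 4 members (8.70%) of the authors' deposited table, against 10.3% of all transcripts. Of the 4, 2 were higher and 2 lower in the knockdown, while 5.46% of all transcripts were higher and 4.83% lower at that threshold. The 4 were the lid subunit PSMD13, the core subunit PSMB4, the inducible catalytic subunit PSMB10 and the scaffold subunit PSMD2, and their share lay near the background. Taking each of the 2 estimation methods of the authors' deposited table alone, with Benjamini-Hochberg adjustment over all transcripts, also called 0 members, while calling 3.77% and 2.82% of all transcripts.

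The members' changes were small. Their median absolute log2 change was 0.21, against 0.33 for all transcripts. An absolute log2 change of at least 0.5 was seen in 7 of 46 members (15.2%) and in 33.3% of all transcripts. Small changes were not particular to the members. The 36 proteasome-associated genes described below had a median absolute log2 change of 0.18, with 8.33% at 0.5 or more. The signed median of the members was 0.09, with 28 members above 0 and 18 below, beside a median of 0.02 and 50.8% above 0 over the table. Over the 266 transcripts called by the authors' deposited table the smallest absolute log2 change was 0.34 and the median 0.88, a size that 3 members reached (PSME2, PSMA3-AS1 and PSMD10) without passing. A p that misses the threshold does not show that these genes kept their efficiency, since no interval can be given. Nothing says that the replicates were separate cultures, and the spread behind the authors' p-values may be technical.

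**Figure D1:**
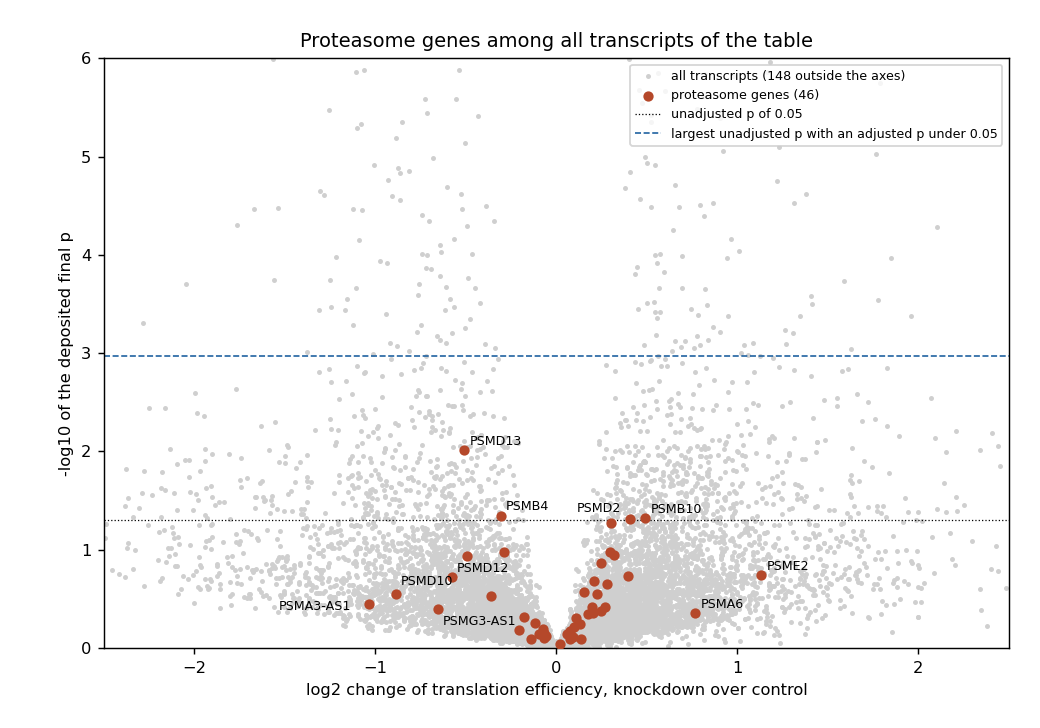
Each point is a transcript, placed by its log2 change of translation efficiency (knockdown over control) and by −log10 of the authors' final p; the 46 proteasome genes are in red and 148 transcripts lie outside the axes. The dashed line is the largest unadjusted p among called transcripts (0.00108), and all 46 members sit below it, with PSMD13 the nearest.

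The alpha ring, which gates the core, had 7 measured subunits, with 5 above 0 and a median log2 change of 0.15. PSMA5 lay at 0.30 (unadjusted p = 0.105) and PSMA3 at 0.28 (p = 0.223) in the authors' deposited table. On the other side PSMA4 lay at −0.29 (unadjusted p = 0.105) in the authors' deposited table. PSMA1 (−0.18), PSMA7 (0.15) and PSMA2 (0.09) were nearer to 0 in the authors' deposited table, so subunits of the same ring lay on either side of 0. PSMA6 (chromosome 14, 35292357 to 35317474) had the largest value of the ring in the authors' deposited table, a log2 change of 0.77, but its unadjusted p was 0.443.

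Among the 7 constitutive beta subunits, 5 lay above 0 and the median log2 change was 0.09. The 3 that cut peptide bonds were all slightly above 0. PSMB6, with the caspase-like site (chromosome 17, 4796144 to 4798503), had a log2 change of 0.09 (unadjusted p = 0.607) in the authors' deposited table. PSMB5, the chymotrypsin-like subunit (chromosome 14, 23025851 to 23035145) and the target of the drug bortezomib, lay at 0.06 (unadjusted p = 0.714) in the authors' deposited table. PSMB7, with the trypsin-like site (chromosome 9, 124353466 to 124415439), lay at 0.30 (unadjusted p = 0.0531, adjusted p = 0.503) in the authors' deposited table. PSMB7 by the second method of the authors' deposited table alone had an unadjusted p of 0.0409. Of the non-catalytic subunits, PSMB4 (chromosome 1, 151399534 to 151401944) had a log2 change of −0.31 (unadjusted p = 0.0452, adjusted p = 0.464) in the authors' deposited table. PSMB3 lay at 0.40 (unadjusted p = 0.186), PSMB2 at 0.24 and PSMB1 at −0.07 in the authors' deposited table.

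The immunoproteasome subunits, which interferon-gamma induces and which replace the constitutive catalytic subunits in newly built cores, were all 3 above 0. PSMB10 (chromosome 16, 67934502 to 67937087), the counterpart of PSMB7, had a log2 change of 0.49 (unadjusted p = 0.0481, adjusted p = 0.476) in the authors' deposited table. PSMB9 (chromosome 6, 32854161 to 32859585), the counterpart of PSMB6, lay at 0.22 (unadjusted p = 0.280), and PSMB8 (chromosome 6, 32840717 to 32844047), the counterpart of PSMB5, at 0.17 (unadjusted p = 0.456) in the authors' deposited table. Each inducible subunit thus had a higher value than the constitutive one it replaces, but the differences between the counterparts were not tested and none of the 6 genes passed an adjusted p of 0.05.

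The base of the 19S particle was represented by 4 of its 6 ATPases and 3 non-ATPase subunits. The ATPases PSMC3 (0.20), PSMC5 (0.13), PSMC4 (−0.06) and PSMC2 (−0.36, unadjusted p = 0.299) were spread around 0 in the authors' deposited table, with a median of 0.04. Among the non-ATPases, PSMD2, the scaffold on which shuttle factors dock, had a log2 change of 0.41 (unadjusted p = 0.0487, adjusted p = 0.479) in the authors' deposited table. PSMD2 had unadjusted p-values of 0.0134 and 0.0487 by the 2 methods of the authors' deposited table. The other large scaffold, PSMD1, lay at 0.02 and the ubiquitin receptor PSMD4 at 0.14 in the authors' deposited table.

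Of the 8 lid subunits, 6 lay below 0, and the median log2 change was −0.09. PSMD13 (chromosome 11, 236546 to 252956, 13 exons), a structural lid subunit, had the smallest p of all members. Its log2 change in the authors' deposited table was −0.51 (unadjusted p = 0.00970, adjusted p = 0.217). PSMD12 lay at −0.58 (unadjusted p = 0.190) and PSMD7, the partner of the lid's deubiquitinase, at −0.50 (unadjusted p = 0.115) in the authors' deposited table. The deubiquitinase itself, PSMD14, lay at −0.07 (unadjusted p = 0.785) in the authors' deposited table. PSMD6 (−0.12), PSMD3 (−0.07) and PSMD11 (0.07) were close to 0 in the authors' deposited table, and PSMD8 was the highest of the lid at 0.32 (unadjusted p = 0.113). The lid and the base thus had medians of −0.09 and 0.13, a gap that was not tested and that is smaller than the range within either.

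All 4 activators, the caps that can replace the 19S particle, lay above 0. PSME1 and PSME2 build the interferon-inducible PA28 ring together, yet their values were far apart, a difference that was not tested. PSME2 (chromosome 14, 24143365 to 24147221) had the highest log2 change of all members, 1.13 (unadjusted p = 0.181, adjusted p = 0.791) in the authors' deposited table. PSME2 by the first method of the authors' deposited table alone had an unadjusted p of 0.0257, and by the second 0.181. PSME2 and PSMA6 had the highest log2 changes of the members and also their lowest knockdown log2 levels (−2.62 and −2.78). PSME1 lay at 0.11 (unadjusted p = 0.499) in the authors' deposited table. The nuclear activators PSME3 and PSME4 both lay at 0.08, and PSMF1, a regulator that binds the core, at 0.21 (unadjusted p = 0.211) in the authors' deposited table.

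Assembly factors lay on both sides of 0 (3 above, 4 below, median log2 change −0.09). The chaperones that pair to build the alpha ring had like values within a pair. PSMG1 and PSMG2 lay at 0.27 and 0.25 in the authors' deposited table, and PSMG3 and PSMG4 at −0.14 and −0.20. Their unadjusted p-values in the authors' deposited table were 0.387 or more. Of the chaperones of the base, PSMD9 lay at 0.20, PSMD5 at −0.09 and PSMD10, also known as gankyrin, at −0.89 (unadjusted p = 0.282) in the authors' deposited table. The non-coding PSMA3-AS1 and PSMG3-AS1 lay at −1.03 (unadjusted p = 0.361) and −0.66 (unadjusted p = 0.400) in the authors' deposited table; for a non-coding RNA this ratio does not measure protein synthesis. Whether counting used strand is unknown here, so reads of PSMA3-AS1 and PSMA3, whose annotated spans overlap, cannot be told apart where they do; the spans of PSMG3-AS1 and PSMG3 do not overlap.

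**Figure D2:**
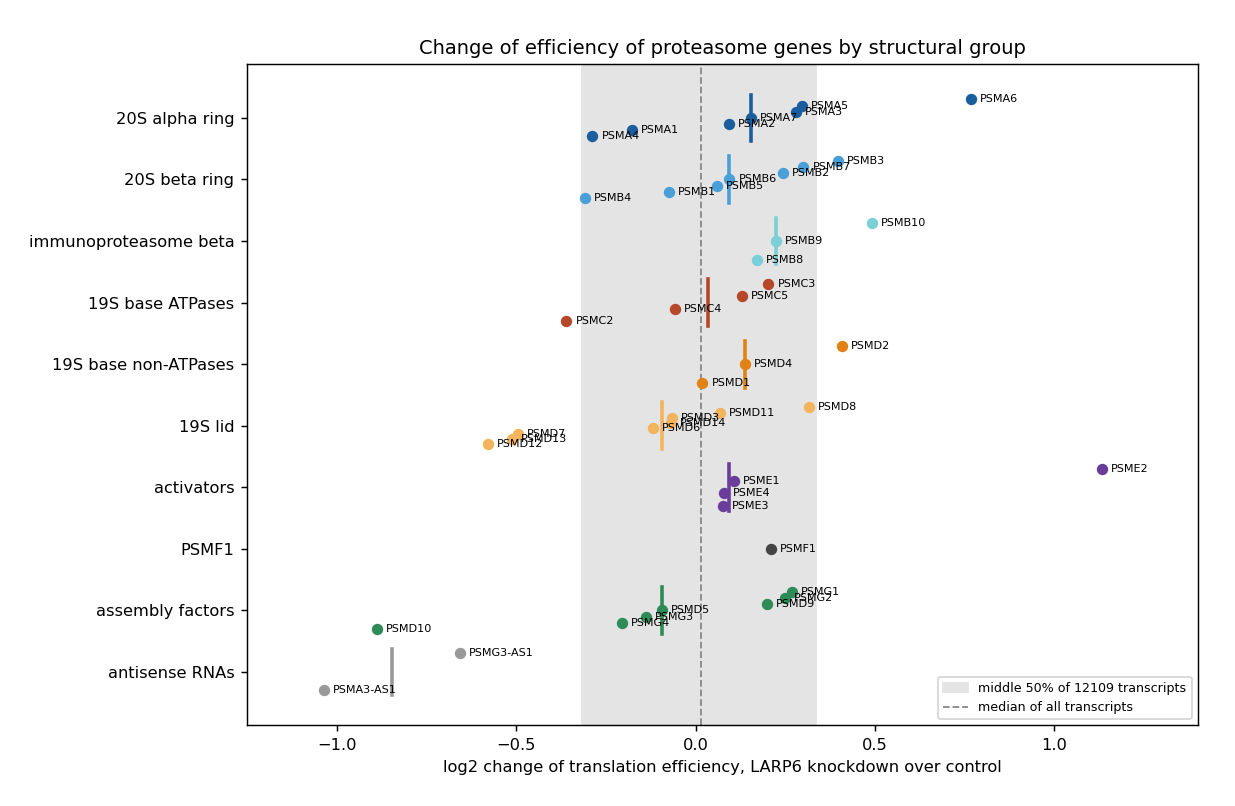
Each point is a gene, placed by its log2 change of translation efficiency (knockdown over control, horizontal axis) in its structural group; vertical bars are group medians and the grey band is the middle 50% of all 12109 transcripts (−0.32 to 0.34). The band holds 34 of the 46 members, and the 3 farthest out are PSME2 (1.13), PSMA3-AS1 (−1.03) and PSMD10 (−0.89), none of which passed the adjusted threshold.

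The level of efficiency separated the members more than the knockdown did. Levels are footprints per RNA on a log2 scale centred near 0 over the table. The sources used here do not give the regions over which footprints and RNA were counted. The part of transcript length in these levels was not tested. The median level of the 46 members in the knockdown was 0.63, with the middle 50% between −0.51 and 1.24, beside a median of 0.01 for all transcripts. A level above 0 was found for 31 members (67.4%) and for 50.3% of all transcripts. In the control, whose level was obtained by subtracting the second method's log2 change from that of the knockdown, the median of the members was 0.67 and 30 lay above 0.

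The 20S core stood at the upper end of the members, as did the chaperones PSMG1 to PSMG4, whose median knockdown level was 1.27. Of 17 alpha, beta and immunoproteasome subunits 15 had a knockdown level above 0, with a median of 1.26 in the knockdown and 1.23 in the derived control. The exceptions were PSMA6 (−2.78) and PSMB3 (−0.16) in the authors' deposited table. Without PSMA6 the alpha ring ran from PSMA2 (0.57) to PSMA5 (1.81) in the authors' deposited table. The beta ring was highest at PSMB1 (1.86), with PSMB7 (1.56) and PSMB6 (1.53) next and PSMB5 lower (0.70) in the authors' deposited table. The immunoproteasome subunits lay together, at 1.19 for PSMB8, 1.26 for PSMB10 and 1.64 for PSMB9, in the authors' deposited table.

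The 15 subunits of the 19S particle were lower and more spread, with a median level of 0.02, and 8 above 0. Among the ATPases PSMC4 was the highest (1.17) and PSMC2 the lowest (−1.15) in the authors' deposited table. The non-ATPase base subunits PSMD4 (−2.55) and PSMD2 (−1.80) were far below the other scaffold PSMD1 (0.02) in the authors' deposited table. In the lid the level ran from −1.22 for PSMD12 to 1.04 for PSMD6 in the authors' deposited table. The gap between the core and the 19S particle is given without a test, because genes are not replicates of a condition.

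Activators and assembly factors covered nearly the full range. PSME1 stood at 1.33 and its ring partner PSME2 at −2.62 in the authors' deposited table. The chaperone PSMG2 (chromosome 18, 12702426 to 12725740) had the highest level of all members, 2.07, and its partner PSMG1 stood at 1.56 in the authors' deposited table. In the other pair, PSMG4 stood at 0.98 and PSMG3 at −0.94 in the authors' deposited table. PSMD10 was low as well, at −2.01 in the authors' deposited table.

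**Figure D3:**
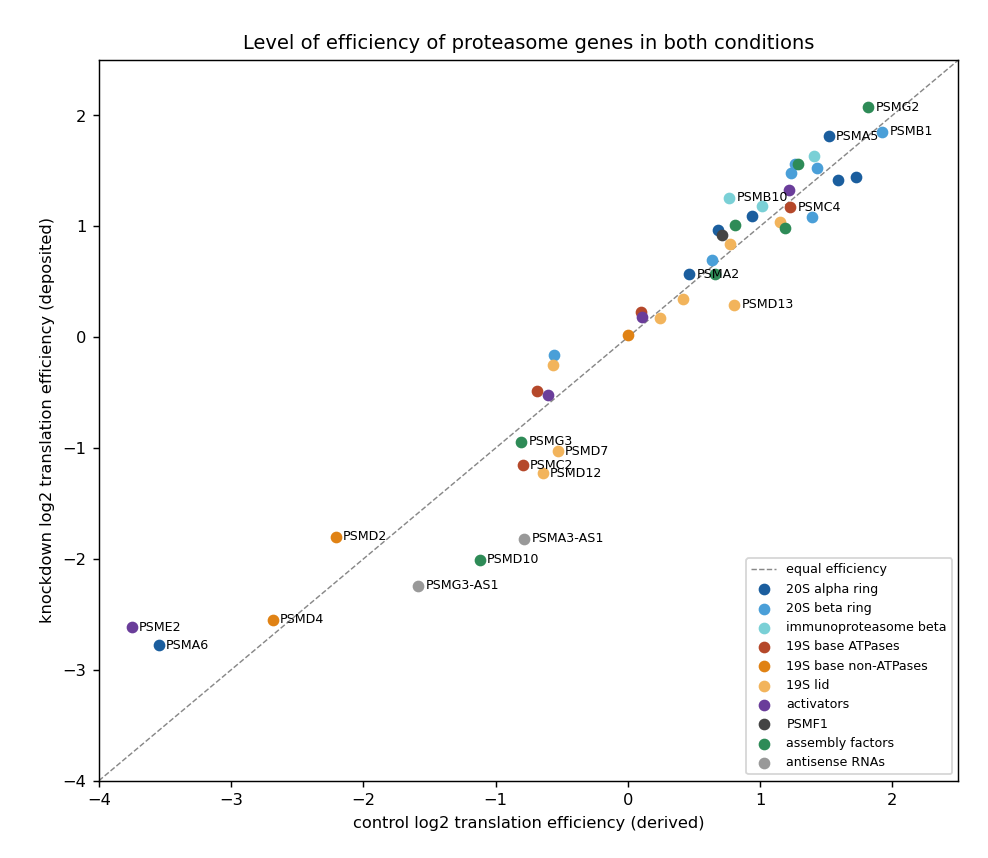
Each point is a gene, with its derived control log2 efficiency on the horizontal and its deposited knockdown log2 efficiency on the vertical axis; the dashed line marks equal values and colours mark the structural groups. Core subunits cluster at the upper right and PSMA6, PSME2, PSMD4 and PSMD2 at the lower left; the axes share the knockdown value, so closeness to the line is partly built in.

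Among the protein-coding members, the lowest levels were found in genes with a named pseudogene. RefSeq (GRCh38.p14) names at least 1 pseudogene after 19 of the 44 protein-coding members, found as the gene's symbol followed by P and a number. These 19 had a median knockdown level of −0.49, and 12 of them (63.2%) lay below 0. The 25 members with no named pseudogene had a median of 1.04, and 1 of them, PSME4 (−0.52), lay below 0. From the lowest up, the 12 in the first set began with PSMA6 (4 named pseudogenes), PSME2 (6), PSMD4 (1), PSMD10 (3), PSMD2 (1), PSMD12 (1), PSMC2 (2), PSMD7 (4) and PSMG3 (1). The rest of the 12 were PSMC3 (1), PSMD8 (1) and PSMB3 (2). The same split over 10396 matched protein-coding transcripts gave medians of −0.52 for the 1610 with a named pseudogene and 0.03 for the 8786 without, so the direction is not particular to proteasome genes. The sources used here do not give how reads mapping to more than 1 place were assigned, and the part of shared reads in these levels was not tested. Values of the 19 members are uncertain for that reason. The median log2 change of the members was 0.15 with and 0.08 without a named pseudogene. Over the matched protein-coding transcripts it was 0.09 with and 0 without. These differences were not tested.

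The name rule left out 5 pseudogene rows, whose levels are shown for comparison. PSMD8P1 stood at 3.28, PSMD12P1 at 2.25, PSMC2P1 at 2.23 and PSME2P1 at 1.71 in the authors' deposited table. Their parent genes stood at −0.25 (PSMD8), −1.22 (PSMD12), −1.15 (PSMC2) and −2.62 (PSME2) in the authors' deposited table, each lower than its copy. PSMA6P1 was low like its parent, at −2.21 against −2.78 for PSMA6 in the authors' deposited table. PSMA6P1 had a log2 change of 0.53 and the other 4 lay below 0, with unadjusted p-values of 0.211 or more, in the authors' deposited table. The rule also left out PSME3IP1, which is no pseudogene but encodes a partner of PSME3 and ends in P and a number; its log2 change was −1.56 (unadjusted p = 0.145) in the authors' deposited table.

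**Figure D4:**
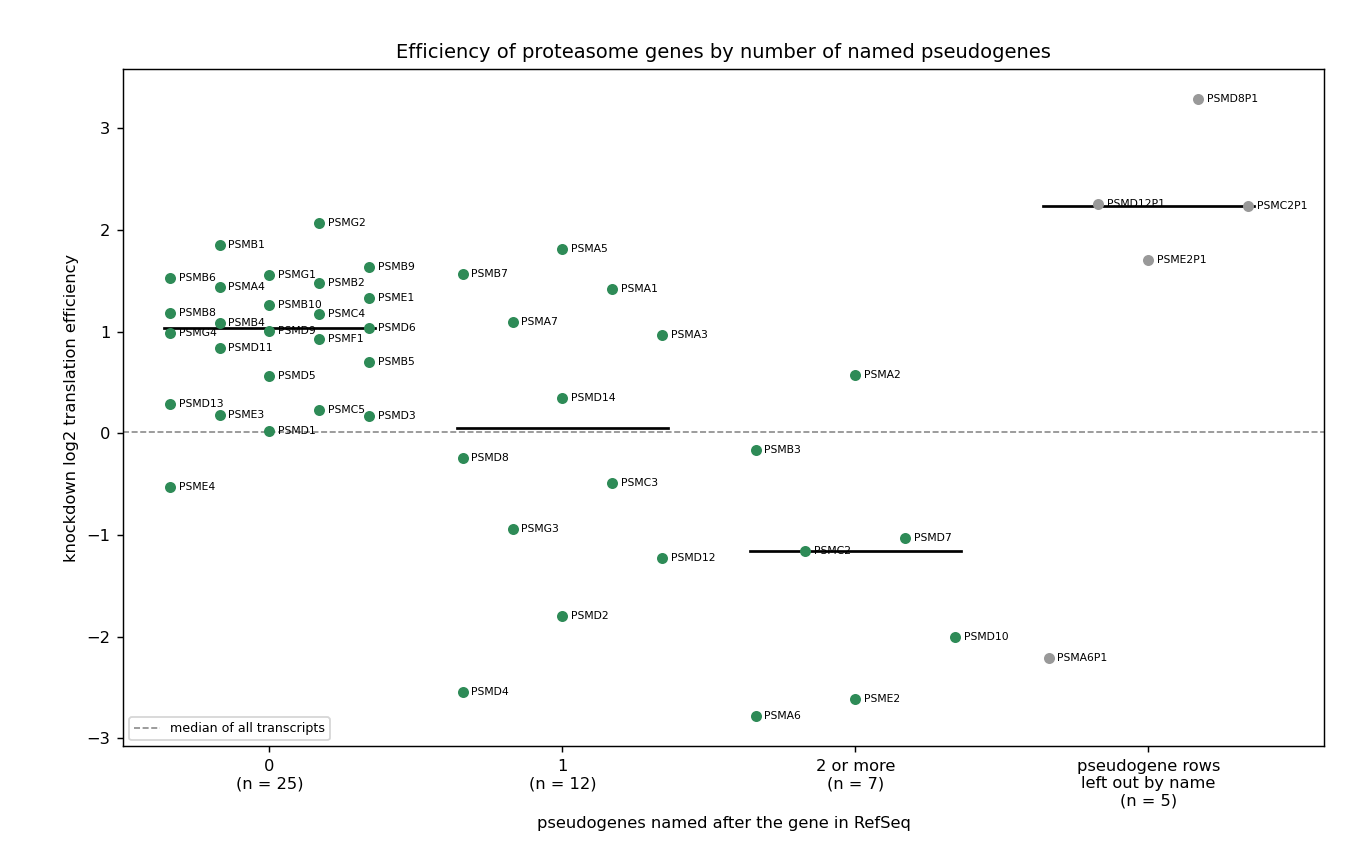
Each point is a gene or pseudogene, placed by its knockdown log2 efficiency (vertical axis) and the number of pseudogenes that RefSeq names after the gene (0, 1, or 2 or more); horizontal bars are medians and the last column holds the 5 pseudogene rows. The other columns hold the 44 protein-coding members; those with no named pseudogene lie above 0 except PSME4, whereas 6 of the 7 with 2 or more lie below 0.

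In sequence, the members had short coding regions. The median coding length was 802.5 bases over the 44 protein-coding members (744 for the 17 core subunits and 1254 for the 15 subunits of the 19S particle) and 1395 bases over all matched protein-coding transcripts. The 5′ UTR had a median of 134.5 bases in the members and 187 over all, and the 3′ UTR 275 and 1059 bases. Shorter coding regions went with higher levels, with Spearman's rho of −0.31 across the 44 members and −0.40 across the 10396 transcripts; these are descriptions across genes of the same libraries. The start context differed less. A start codon with 10 bases before it was annotated for 43 members, and 41 of them (95.3%) had a purine at position −3, against 87.1% of 10090 transcripts. A G at position +4 was present in 24 members (55.8%) and in 53.6% of all. The 22 members with both favourable bases had a median level of 0.63 and the 21 without both 0.97. Over the 10090 transcripts the order was the opposite, with medians of 0.03 with both bases and −0.09 without.

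The start regions of PSMB6 and PSMB7, printed above, share the letters AAGATGGCGG, that is, the start codon with 3 bases before and 4 after. Parts of it, AAGATGG and ATGGCGG, and the whole were searched on the sense strand in the printed window, and all 3 strings, which overlap, were chosen after the sequences had been seen. PSMB6 and PSMB7 hold all 3 strings by that choice and are counted in each share of the members. The shares are therefore no test of whether the strings are frequent among proteasome genes. AAGATGG was found in 8 of 43 members (18.6%) and in 5.30% of the 10090 transcripts. The 8 were PSMA2, PSMB4, PSMB6, PSMB7, PSMC5, PSMD4, PSMD5 and PSMD11, from 6 structural groups. Their levels ran from −2.55 (PSMD4) to 1.56 (PSMB7), and their log2 changes from −0.31 (PSMB4) to 0.30 (PSMB7). ATGGCGG was found in 7 of 43 members (16.3%) and in 7.78% of the transcripts, and the whole string in 4 members (9.30%), PSMA2, PSMB6, PSMB7 and PSMD11, and in 2.08% of the transcripts.

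Genes that work with the proteasome were taken from a list of 37, of which 36 were measured. Past an adjusted p of 0.05, 0 of these rose and 1 fell by the authors' deposited table, against 1.07% and 1.12% of all transcripts, and the median log2 change was −0.03 with 14 above 0. Counts this small do not set the list apart from the table. NFE2L2, a transcription factor of the oxidative stress response that can drive proteasome genes, had a lower translation efficiency in the knockdown. Its log2 change was −0.61, with an adjusted p of 0.0391 per the authors' deposited table. The amount of its protein was not measured. NFE2L1, the factor that restores proteasome gene expression when the protease is inhibited, lay at −0.15 (unadjusted p = 0.274) in the authors' deposited table. UBB, which encodes a chain of ubiquitin units, lay at −0.25 (unadjusted p = 0.475) in the authors' deposited table.

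The other measured genes of this list did not pass, among them subunits, assembly factors, ubiquitin ligases and deubiquitinases. ADRM1, the ubiquitin receptor docked on PSMD1, had a log2 change of 0.50 (unadjusted p = 0.00621, adjusted p = 0.168) in the authors' deposited table. UBE3C, a ubiquitin ligase that works at the particle, was next above 0 at 0.40 (unadjusted p = 0.111) in the authors' deposited table. SEM1, the small lid subunit, lay at −0.23 and POMP, the maturation factor of the core, at −0.18 in the authors' deposited table. PAAF1, a chaperone of the base, lay lowest of the list at −1.08 (unadjusted p = 0.0182, adjusted p = 0.302) in the authors' deposited table. UBR2, a ubiquitin ligase, was next at −0.79 (unadjusted p = 0.0783) in the authors' deposited table. USP14 (0.06) and UCHL5 (−0.39), the deubiquitinases that visit the particle, had unadjusted p-values of 0.790 and 0.322 in the authors' deposited table.

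Other complexes of fixed composition gave larger medians. The 8 subunits of the CCT chaperonin, which folds actin and tubulin, had a median log2 change of 0.41 with 8 above 0 and 0 called. The 40 cytosolic ribosomal proteins measured here had a median of 0.43 with 29 above 0. Called as higher past the adjusted threshold of 0.05 was 1 of these 40, against 1.07% of all transcripts. Counts this small do not set either complex apart from the table. Before adjustment, a p under 0.05 was reached by 8 of the 40 (20%) and by 3 of the 8 CCT subunits (37.5%). All of these were higher in the knockdown, as were 5.46% of all transcripts at that threshold. The proteasome members, at 0.09, lay between the medians of the 2 complexes and the median of all transcripts. The complexes differed in level too, with a median knockdown log2 level of −0.48 for CCT and −2.38 for the ribosomal proteins, beside 0.63 for the members. The part of level in these changes was not tested. The differences between the complexes were not tested, and ribosomal protein genes are uncertain because of their many processed copies.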

How the data were processed

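RNA-seq and ribosome profiling libraries were made from 8 samples in 4 groups of 2. Per the submitters' processing notes, cutadapt and Bowtie were used with hg38 (GRCh38). The sources used here do not give tool versions, read counting or the efficiency test's program. Per the file headers, the authors deposited log2 changes of translation efficiency by 2 methods and a final one, and the knockdown's log2 efficiency. They also deposited p-values: 1 per method, the final one and its adjusted form. In 12109 of 12109 rows the final p-value was the larger of the 2, and the adjusted p-value differed from Benjamini-Hochberg adjustment by at most 6.35e-15. Depth is unknown.

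Rows were matched to GENCODE release 29 by gene symbol and 6 identifier digits (10997 matched, 1112 not; all 46 members matched), and pseudogene names came from RefSeq. The test was the authors' adjusted p at 0.05 over all rows. The count models foreseen for library values could not be applied. Sets are described by counts and medians beside all rows, with no set test. Members and lists were chosen with earlier results of these data known. Named in full were the catalytic and immunoproteasome subunits, members with a p under 0.05, the 3 highest and 3 lowest changes, the 2 highest and 2 lowest levels, and the largest change per group; of the associated genes, those called and the 2 highest and 2 lowest others. Some items of these lists are not reported here. NFE2L1, UBB, SEM1, POMP, USP14 and UCHL5 were added for their roles after their values were seen. The adjustment was tested on simulated data. Python 3.11.15, pandas 2.3.3 and scipy 1.17.1 were used. Alternatives were other thresholds, each method alone, protein-coding rows, recentring, the other control derivation, and, chosen after seeing the data, members with no named pseudogene and a minimum log2 change of 1.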

Additional observations from a re-analysis of the deposited data

How the results depend on the processing

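No paired analysis was possible because single libraries have no values in the deposited comparison, and replicates could not be left out in turn for the same reason. The count of 0 called members stayed at 0 at an adjusted p threshold of 0.1 and with each method alone; an adjusted p of 0.01 and a minimum absolute log2 change of 1 could only give 0. The 2 methods gave group medians of the log2 change that differed from the final ones by at most 0.02, but the final log2 change is that of 1 of the methods, so this is no independent check. Taking protein-coding rows only leaves every structural group as it is and drops the antisense RNAs. The median knockdown log2 efficiency of the members went from 0.63 to 0.77 on protein-coding rows only and to 0.77 without antisense RNAs, which are the same 44 genes. It was 1.04 in the 25 of those 44 with no named pseudogene, a choice that leaves out both the antisense RNAs and the genes with named pseudogenes. At an adjusted p of 0.01, 0 proteasome-associated genes were called, against 1 at 0.05. Depth is unknown, so changes too small or too shallow to be called cannot be told apart.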
